A study of Mus musculus with 104 samples.

Results

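The junctions described here are those in which the bait, a DNA break made at a fixed site, was joined to sequence on the same chromosome within 10 kb of that site. They were chosen by position alone: every row of the 24 deposited tables whose joined sequence (the prey) lay on the bait chromosome within 10000 bases of the bait coordinate given for it, each read name counted once per table. They numbered 1338109 of 2018794 junctions, or 66.3%. The tables came from HTGTS-Seq, in which a primer next to the bait copies outward across the break and the read shows what the broken end was joined to. Embryonic stem cells (ESC) from 2 mouse lines were used, either as such or after differentiation in culture into neural progenitor cells (NPC). All of them, in every group, carried the genotype Xrcc4-/- p53-/- on a C57BL6/129SVE background, and no group with intact Xrcc4 or p53 was analysed here. Each line was studied with a bait on chromosome 7, 12 or 15, and each was treated with APH (aphidicolin, an inhibitor of the replicative DNA polymerases) or with DMSO, its solvent. Every combination of cell type, line, bait and treatment makes up 1 pool, 24 in total and 6 in each of the 4 conditions (ESC or NPC, with DMSO or APH). A pool held 32896 to 211923 junctions, of which 25721 to 102092 lay near the bait. The dose and duration of APH and the cutting enzyme were not given in the sources used here.

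XRCC4 is the partner of DNA ligase IV, the enzyme that seals breaks in classical non-homologous end joining. Cells without it join ends by alternative pathways, which often use microhomology, a few bases shared by both ends, and often act after the ends have been trimmed. p53 would otherwise stop or kill cells that carry unrepaired breaks. A single cut leaves a primer-side end, which carries the bait, and an end on the other side. Joining these again with loss or gain of bases gives prey that lies beyond the break in the orientation of the bait. An exact rejoining restores the uncut sequence, leaves no junction and is not counted here. Prey on the primer side in the opposite orientation has another geometry: the bait end is joined to a primer-side end, as when a primer-side end of a sister chromatid or of the other homologue is its partner. Prey beyond the break in the opposite orientation is an inversion of the far side, and prey on the primer side in bait orientation repeats sequence next to the bait.

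The 3 baits are shown here as they read from the primer in mm9, with the last 30 bases of the bait in lower case and the first 30 bases beyond the break in capitals, since distance and trimming are counted from the step between them.
Bait 7, chr7:80451924-80451983, minus strand: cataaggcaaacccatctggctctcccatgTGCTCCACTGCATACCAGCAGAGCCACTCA
Bait 12, chr12:13000832-13000891, plus strand: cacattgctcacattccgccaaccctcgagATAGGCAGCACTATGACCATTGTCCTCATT
Bait 15, chr15:86848180-86848239, plus strand: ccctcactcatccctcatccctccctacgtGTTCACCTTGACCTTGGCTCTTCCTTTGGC
The break was placed at the outermost base that held at least 1% of the bait ends of blunt joints. This is base 80451954 on chromosome 7, 13000861 on chromosome 12 and 86848209 on chromosome 15. On chromosome 7 the coordinate that centres the 10 kb window lies 2 bases from this step. On chromosomes 12 and 15 it marks where the bait alignment starts at the primer, 132 and 80 bases before the break. Membership follows the window, and every distance, side and bait end below is measured from the break.

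The libraries were not all separate, and this touches every NPC result and, less widely, those of ESC. Identical junctions more than 5 Mb from the bait were rare between experiments of different pools of the same bait, with medians of 0.0657% to 0.613% of the smaller library. In 20 of 1517 such pairs of experiments they made up at least 10%. Of these, 10 joined NPC line 1 and NPC line 2 of bait 15, with 32.5% to 82.6% of junctions shared, and in some the treatment labels conflict: APH experiment A of line 1 shared 75.5% with DMSO experiment A of line 2. The other 10 pairs shared 12.2% to 43.4%. Among them were an APH and a DMSO experiment of the same ESC line and bait for line 1 bait 7 (23.4%), line 1 bait 15 (17.4%) and line 2 bait 12 (12.2%). Some joined the cell types: DMSO experiments of ESC and NPC line 1 bait 12 (32.6%) and line 1 bait 15 (16.8%). DMSO experiment A of ESC line 2 bait 15 shared 27.7% and 26.5% with NPC APH experiments D of lines 2 and 1. For bait 12, APH experiment C of NPC line 1 shared 43.4% and 15.7% with APH experiments D and C of NPC line 2. Differences are therefore given over the 6 pairs of line and bait, and again over the 4 pairs of baits 7 and 12. These 4 pairs leave out bait 15 but still hold shared libraries of baits 7 and 12. Differences without NPC line 2 bait 15 and the 14 further experiments in these other 10 pairs are given at the end. With 6 pairs the exact sign-flip test cannot go below p = 0.031, and with 4 pairs it cannot go below p = 0.125. Of 35 contrasts, 21 that involve NPC passed the threshold of 0.05 with 6 pairs. A contrast passes with 6 pairs only if all 6 differences have the same sign. Each of these 21 therefore keeps its direction without NPC line 2 bait 15 and over baits 7 and 12. That is no further support, and only the size of the difference can be read there. The pairs come from 2 lines, and the labels do not say whether experiments were separate cultures, so a p-value speaks of the variation among these pools and of nothing wider.

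Fewer junctions stayed close to the bait in NPC than in ESC, and APH lowered the share further, most in NPC. In ESC with DMSO, 78.2% to 87.2% of a pool lay within 10 kb, with a median of 82.2%. In ESC with APH the pools ran from 76.5% to 84.8%, median 79.8%. NPC with DMSO spanned 53.9% to 76.9%, median 72.5%, and NPC with APH 46.9% to 61.4%, median 52.5%. No NPC pool reached the lowest ESC pool of the same treatment.

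**Figure D1:**
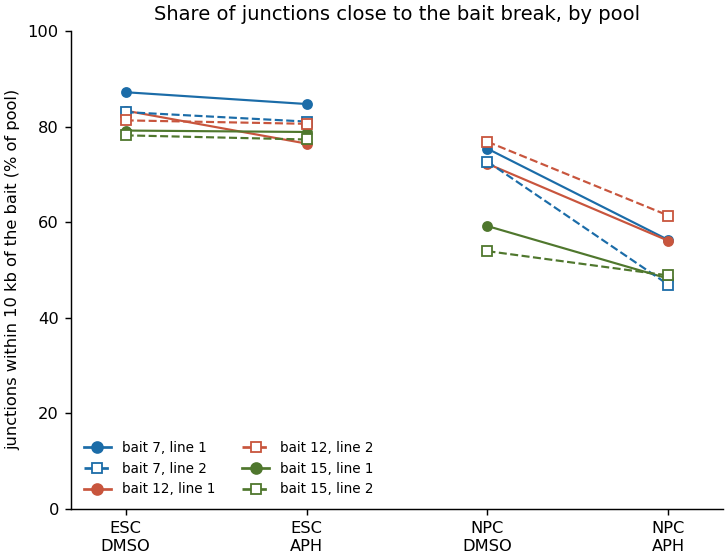
Share of each pool's junctions within 10 kb of the bait, in percent (vertical axis), for the 4 conditions (horizontal axis); each point is 1 pool, lines join APH and DMSO pools of the same line and bait, and colour and marker give bait and line. All 12 lines slope down from DMSO to APH, more in NPC, where the share fell by 15.4 points on average.

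APH lowered the share in NPC in 6 of 6 pairs, from a mean of 68.4% ± 9.46 to 52.9% ± 5.80 (SD, n = 6). This is a difference of -15.4 points ± 7.04 (two-sided exact sign-flip test over 6 pairs, p = 0.031, adjusted over the 35 contrasts 0.048). Over the pairs of baits 7 and 12 it was -19.1 points. In ESC the share fell by 2.21 points, from 82.1% to 79.9%, again in 6 of 6 pairs (exact sign-flip p = 0.031). That small change is within the spread between pools: without pairing the exact permutation test gave p = 0.242. It came to -0.45 points (exact sign-flip p = 0.812) once junctions within 100 bases of the break were left out. Line 1 bait 12, at -6.90 points, was the largest of the 6 ESC differences, and without it the mean was -1.27 points. Without the experiments that share libraries the ESC difference was -3.19 points, lower in 5 of 6 pairs (exact sign-flip p = 0.0625). The APH effect was larger in NPC than in ESC by 13.2 points, in 6 of 6 pairs (exact sign-flip p = 0.031, adjusted 0.048), and by 16.1 points over baits 7 and 12. NPC lay 13.7 points below ESC with DMSO and 26.9 points below with APH, each in 6 of 6 pairs (exact sign-flip p = 0.031). Over baits 7 and 12 these gaps were -9.45 and -25.6 points. With only the junctions on the bait chromosome as the total, the gap under DMSO was -3.71 points and no longer passed (exact sign-flip p = 0.0938). Nor did it pass once junctions within 100 bases of the break were left out, at -7.23 points (exact sign-flip p = 0.0625).

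Where the prey lay changed as well. The side and orientation of each junction were sorted into 4 geometries. Prey beyond the break in bait orientation, the geometry of rejoining, held most junctions in ESC: 74.0% to 80.2% of members with DMSO and 71.1% to 78.5% with APH. In NPC it held 62.4% to 69.2% with DMSO and 44.2% to 59.0% with APH. Prey on the primer side in opposite orientation held 7.43% to 12.2% of members in ESC with DMSO and 8.23% to 14.9% with APH. In NPC the same class held 16.0% to 24.4% with DMSO, and 25.4% to 43.8% with APH. The ESC and NPC pools did not overlap in either of these 2 classes. The remaining classes were small in every pool. Inversions of the far side averaged 8.29% ± 0.73 in ESC with DMSO and 8.84% ± 0.62 in NPC with APH, and primer-side prey in bait orientation averaged 4.49% and 4.56%.

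**Figure D2:**
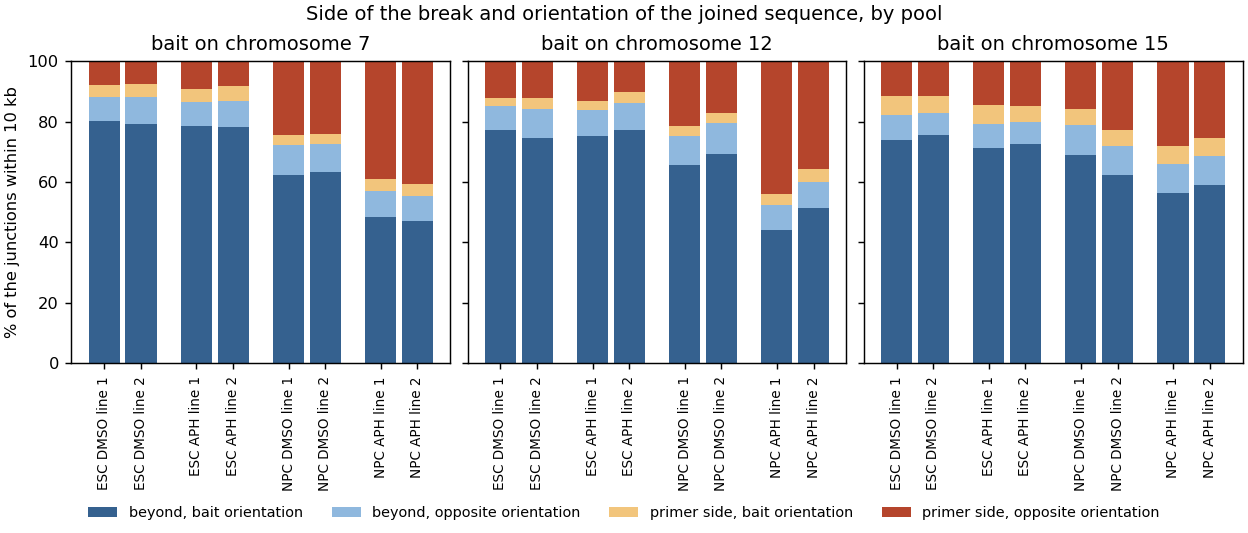
Members of each pool split by side of the break and orientation of the prey, in percent of the junctions within 10 kb (vertical axis), 1 bar per pool, 1 panel per bait. The primer-side, opposite-orientation class (dark red) takes 7.43% to 14.9% of ESC bars and 16.0% to 43.8% of NPC bars.

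The tests on side and on orientation, taken singly, give these differences with their error. The share of members beyond the break fell with APH in NPC from 75.0% ± 3.36 to 59.9% ± 6.33, by 15.0 points, lower in 6 of 6 pairs and with no overlap between the groups (exact sign-flip p = 0.031, adjusted 0.048). Over baits 7 and 12 it was -18.6 points. In ESC it was 85.1% with DMSO and 83.7% with APH, a difference of -1.38 points ± 1.87, lower in 5 of 6 pairs (exact sign-flip p = 0.156, adjusted 0.176). The share in bait orientation followed the same course. It fell by 13.7 points with APH in NPC, from 69.3% to 55.7%, in 6 of 6 pairs (exact sign-flip p = 0.031), and by 16.8 points over baits 7 and 12. In ESC the values were 81.3% and 80.0% (exact sign-flip p = 0.188, adjusted 0.205). NPC held fewer members beyond the break than ESC, by 10.1 points with DMSO and by 23.7 points with APH, both in 6 of 6 pairs (exact sign-flip p = 0.031). Over baits 7 and 12 these were -11.5 and -29.6 points. Bait orientation was rarer in NPC than in ESC by 11.9 and 24.3 points, in 6 of 6 pairs each (exact sign-flip p = 0.031), and by 13.1 and 29.5 points over baits 7 and 12. The difference in APH effect between NPC and ESC was -13.6 points for side and -12.4 points for orientation, lower in 5 of 6 pairs each (exact sign-flip p = 0.0625, adjusted 0.081). The pair in the other direction was line 2 bait 15, one of those with shared libraries, at 0.036 and 0.42 points.

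A share of members depends on the rest of the members, so the same classes were also taken as a share of all junctions in the pool. The classes were singled out after their values were seen, and they have no test. Rejoining geometry, which leaves out exact rejoining, averaged 63.1% ± 4.44 of all junctions in ESC with DMSO and 60.3% ± 4.37 with APH. In NPC it averaged 44.7% ± 6.70 with DMSO and 26.9% ± 3.27 with APH. Primer-side prey in opposite orientation averaged 8.54% and 9.32% of all junctions in ESC, 14.4% ± 3.38 in NPC with DMSO and 18.9% ± 4.94 in NPC with APH. With APH in NPC it was higher in 6 of 6 pairs, by 0.13 to 8.97 points, while rejoining geometry was lower in 6 of 6 pairs, by 17.7 points on average. The largest of these differences in the primer-side, opposite class was that of bait 12 in line 1. There the class made up 15.6% of all NPC junctions with DMSO and 24.6% with APH, against 10.0% and 10.2% in ESC. Both of these NPC pools hold shared libraries. Over the pairs of baits 7 and 12 the mean difference with APH in NPC was 5.74 points ± 3.69.

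Single experiments, where letters in the tables matched the labels, showed the same separation. The primer-side, opposite class held 7.22% to 17.8% of members over 16 ESC experiments with DMSO and 5.67% to 15.8% over 28 with APH. These ESC experiments with DMSO are of baits 12 and 15 only, and those with APH include bait 7, so their ranges do not compare the treatments. In NPC, leaving out line 2 bait 15, it held 14.9% to 28.9% over 20 experiments with DMSO and 26.4% to 48.1% over 19 with APH. No junction of experiment B of NPC line 2 bait 12 with APH was among those counted, after 10907 rows of this pool with repeated read names were dropped. Whether experiment B was among the dropped rows was not examined. The 4 experiments of NPC line 2 bait 15 with DMSO held 26.2%, 16.3%, 15.5% and 28.5% (A to D). Of these, A and D share most distant junctions with experiments A and C of line 1 labelled APH, which held 26.4% and 28.4%. Every one of these 19 NPC experiments with APH lay above every ESC experiment, and the DMSO experiments of the 2 cell types overlapped between 14.9% and 17.8%. The highest ESC value, 17.8%, was DMSO experiment A of line 1 bait 12, which shares 32.6% of distant junctions with an NPC experiment. Within pools, 16 pairs of experiments shared at least 10%, for example 50.9% for C and D of ESC line 2 bait 12 with DMSO. These are thus not counts of independent libraries. Sequencers differed between the cell types for line 2 bait 12, for line 2 bait 7 with APH, and in part for line 2 bait 7 with DMSO and line 1 bait 7, and their part in the difference was not tested. In line 1 bait 12 all 4 pools were read on the same sequencer, and there the class held 12.1% and 13.3% of members in ESC against 21.6% and 43.8% in NPC (DMSO, then APH). In line 1 bait 15 a single run read both cell types, and there it held 11.6% and 15.1% in ESC against 16.0% and 28.2% in NPC. Each of these 2 line and bait pairs has DMSO experiments shared between ESC and NPC, at 32.6% and 16.8% of distant junctions. NPC line 1 bait 15 also has treatment labels that conflict with those of line 2.

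Over all members, prey also lay farther from the break with APH, in both cell types, and farther in NPC than in ESC. Primer-side prey in opposite orientation did not follow this difference between cell types with DMSO, as given below. The median distance over the members of a pool ran from 597 to 718 bases in ESC with DMSO and from 647 to 1100 in ESC with APH. In NPC it ran from 857 to 1348 bases with DMSO and from 1188 to 1668 with APH. Members within 1 kb fell with APH in ESC from 60.9% ± 1.59 to 53.7% ± 4.46, a difference of -7.21 points found in 6 of 6 pairs (exact sign-flip p = 0.031, adjusted 0.048). In NPC they fell from 50.4% ± 5.13 to 39.9% ± 4.76, by 10.5 points in 6 of 6 pairs (exact sign-flip p = 0.031), and by 11.8 points over baits 7 and 12. Here the APH effects in the 2 cell types did not pass a test of their difference, -3.30 points ± 6.26, lower in 5 of 6 pairs (exact sign-flip p = 0.25, adjusted 0.257). The pair in the other direction was again line 2 bait 15, and over baits 7 and 12 the difference was -6.32 points. NPC held fewer members within 1 kb than ESC by 10.5 points with DMSO and 13.8 points with APH, each in 6 of 6 pairs (exact sign-flip p = 0.031). Over baits 7 and 12 these were -8.39 and -14.7 points.

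**Figure D3:**
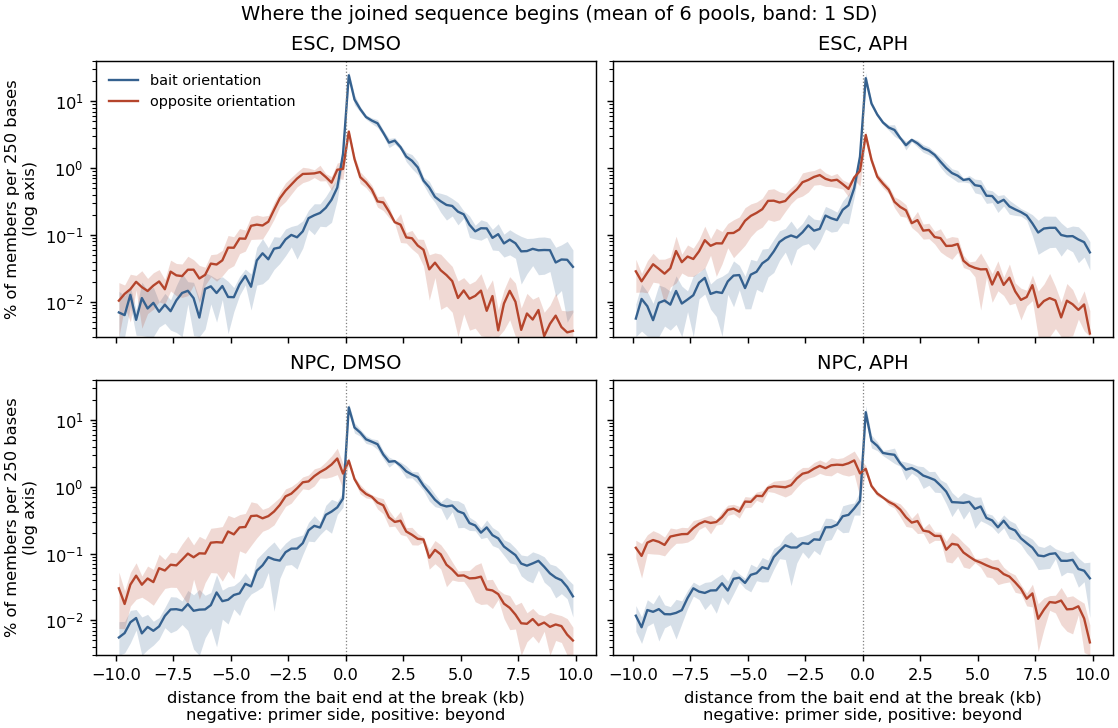
Members per 250 bases in percent of the pool's members (vertical axis, log scale) against distance from the break in kb (horizontal axis, negative on the primer side), by orientation, as the mean of 6 pools with a band of 1 SD. Bait orientation peaks just beyond the break in all 4 panels, and opposite orientation forms a broad rise on the primer side, higher in NPC and highest in NPC with APH.

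Split into steps of distance, the members shifted as follows. Members over 100 and up to 1000 bases away averaged 43.3% in ESC with DMSO, 37.8% in ESC with APH, 38.8% in NPC with DMSO and 28.8% in NPC with APH. Members over 2000 and up to 5000 bases away averaged 15.6%, 23.0%, 21.8% and 29.2% in the same order. Those over 5000 bases away averaged 2.54%, 5.84%, 4.90% and 9.76%. Members within 100 bases averaged 17.6% and 15.8% in ESC and 11.6% and 11.1% in NPC (DMSO, then APH). The 4 geometries had distances of their own. In ESC with DMSO the median over members averaged 611 bases for rejoining geometry and 369 bases for inversions of the far side, but 1512 bases for primer-side prey in opposite orientation. With APH that class averaged 2039 bases in ESC and 2162 in NPC, against 1382 ± 491 in NPC with DMSO. In NPC line 2 bait 15, the pair with shared libraries, it was 2295 bases with DMSO and 2280 with APH. With DMSO this class lay closer to the break in NPC than in ESC in every pair but that one. The medians were 1264 bases in NPC against 1311 in ESC for line 1 bait 7, and 927 against 1475.5 for line 2 bait 12. In line 2 bait 15 the ESC median was 1611.5 bases. The inversions differed by cell type, with 470 bases in ESC and 1075 in NPC with APH. Close to the break the primer-side, opposite class had a small second group, between the primer start and the break. For bait 7 this stretch of 93 bases held 3019 of 80766 such junctions, and the next stretch of equal length 242. For bait 12, with 133 bases, the counts were 8229 of 98186 and 2158, and for bait 15, with 81 bases, 1272 of 94985 and 162.

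The window does not cut a gap in the data. Between 9 and 10 kb from its centre lay 7003 junctions, and between 10 and 11 kb 5778. The ratio of the outer to the inner count was 0.68 to 1.14 over baits and conditions.

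The bait end itself was trimmed more in NPC. A bait end within 10 bases of the break, called nearly complete here, was found in 45.8% to 73.6% of members in ESC with DMSO (median 60.9%) and 43.5% to 72.9% with APH (median 60.1%). In NPC it was found in 37.4% to 53.6% with DMSO (median 42.9%) and 28.9% to 47.3% with APH (median 33.2%). The cell types overlap because baits differ, bait 15 being highest in each condition. Within each line and bait the NPC pool was always lower. NPC lay 17.2 points ± 5.55 below ESC with DMSO and 23.3 points ± 6.69 below with APH, in 6 of 6 pairs each (exact sign-flip p = 0.031, adjusted 0.048), and over baits 7 and 12 -15.0 and -21.8 points. APH lowered it in NPC by 7.57 points ± 2.99, in 6 of 6 pairs (exact sign-flip p = 0.031), and by 8.81 points over baits 7 and 12. Without pairing, the NPC difference had an exact permutation p = 0.0996. In ESC the APH difference was -1.40 points ± 1.55, lower in 5 of 6 pairs (exact sign-flip p = 0.0938, adjusted 0.117). The 2 APH effects differed by -6.17 points ± 2.76, in 6 of 6 pairs (exact sign-flip p = 0.031, adjusted 0.048), and by -6.85 points over baits 7 and 12.

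In bases, the median loss from the bait end was 8 for bait 7 in all ESC pools, 12 to 14 in NPC with DMSO and 15 to 19 in NPC with APH. For bait 12 it was 9 to 13 in ESC and 13 to 19 in NPC, and for bait 15 it was 5 in ESC and 9 to 12 in NPC. The lower NPC values were found in each of the 4 geometries. A nearly complete bait end averaged 60.4% in rejoining geometry in ESC with DMSO and 44.7% in NPC with DMSO. For inversions it averaged 68.6% and 49.6%, and for primer-side prey in bait orientation 64.7% and 50.7%. Primer-side prey in opposite orientation had 60.7% ± 12.1 in ESC with DMSO, 57.9% ± 14.1 in ESC with APH, 38.5% ± 6.38 in NPC with DMSO and 28.8% ± 7.93 in NPC with APH. In ESC the mean of this class was thus much like that of rejoining geometry, but the baits differed. It was higher than rejoining geometry in the bait 7 pools, lower in the bait 12 pools and mixed for bait 15. In every NPC pool, with DMSO or APH, this class had fewer nearly complete ends than rejoining geometry, which averaged 40.3% in NPC with APH. That ordering is a description, with no test.

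**Figure D4:**
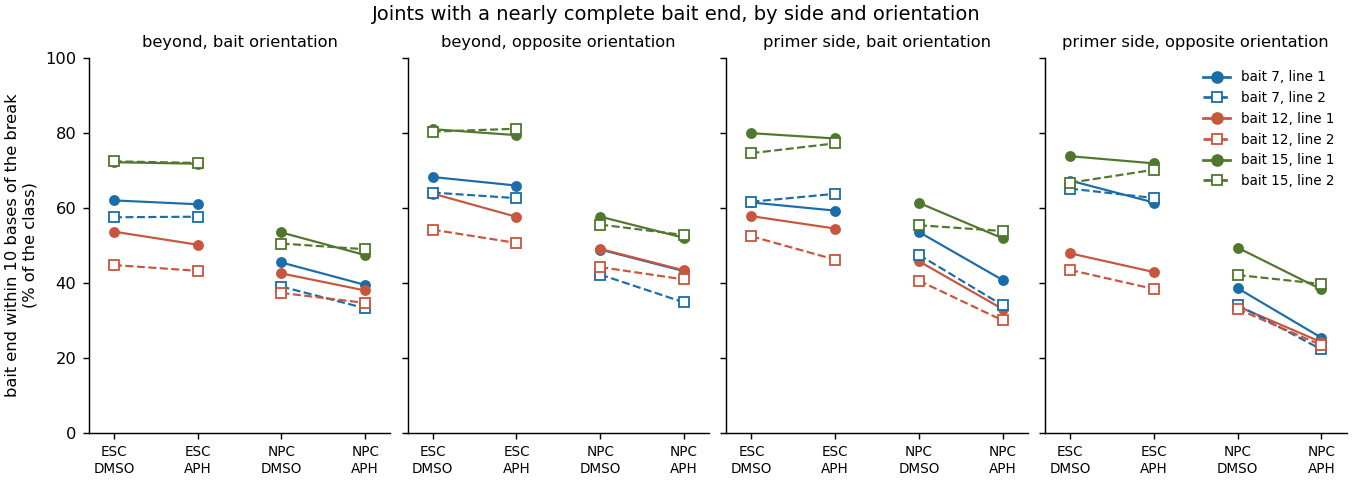
Share of joints whose bait end lies within 10 bases of the break, in percent of the class (vertical axis), for the 4 conditions, 1 panel per side and orientation; each point is 1 pool and lines join APH and DMSO of the same line and bait. NPC points lie below the ESC points of the same line and bait in every panel, lowest for primer-side prey in opposite orientation with APH, at 22.2% to 39.7%.

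Most joints shared bases between bait and prey, and more did so in NPC. At least 1 base that aligns to both sides, microhomology in the sense of the alignment, was found in 57.6% to 63.6% of members in ESC with DMSO (median 59.5%) and 58.3% to 65.0% with APH (median 61.2%). NPC had 62.9% to 68.3% with DMSO (median 65.1%) and 63.9% to 72.4% with APH (median 71.9%). NPC exceeded ESC by 5.03 points ± 2.19 with DMSO and 8.21 points ± 3.78 with APH, in 6 of 6 pairs each (exact sign-flip p = 0.031, adjusted 0.048), and by 5.04 and 9.90 points over baits 7 and 12. Counting only overlaps of 3 bases or more, the gaps were 1.16 and 3.82 points (exact sign-flip p = 0.0938 and 0.0625). The APH difference in NPC was 4.20 points ± 3.17, higher in 5 of 6 pairs (exact sign-flip p = 0.0625, adjusted 0.081). The pair that went the other way was line 2 bait 15, at -0.91 points, and over baits 7 and 12 the difference was 5.99 points, higher in 4 of 4. With each distinct junction counted once it was 6.63 points and passed (exact sign-flip p = 0.031). In ESC it was 1.02 points ± 1.71 (exact sign-flip p = 0.156).

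Joints with inserted bases, between bait and prey and aligned to neither, moved the other way. A joint has shared bases, inserted bases or neither (blunt), and blunt joints were few. The insertions are therefore largely the counterpart of the overlaps and no separate result. They averaged 29.8% ± 2.19 in ESC with DMSO, 29.1% ± 2.48 in ESC with APH, 24.5% ± 1.62 in NPC with DMSO and 21.6% ± 3.05 in NPC with APH. NPC had fewer than ESC in 6 of 6 pairs under either treatment, with differences of -5.30 points with DMSO and -7.47 points with APH (exact sign-flip p = 0.031, adjusted 0.048), and of -5.30 and -8.79 points over baits 7 and 12. With APH in NPC the difference was -2.85 points, lower in 5 of 6 pairs (exact sign-flip p = 0.0625), and in ESC it was -0.68 points (exact sign-flip p = 0.469). Blunt joints made up 8.05% to 10.7% of members over the 24 pools.

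Overlap lengths covered narrow ranges over the pools. An overlap of 2 bases was the commonest form, at 19.5% to 26.9% of members over the 24 pools. Overlaps of 1 base held 13.7% to 17.9%, of 3 bases 11.1% to 17.6%, of 4 bases 4.85% to 8.20%, and of 5 or more 4.62% to 7.03%. The mean overlap, among members with one, was 2.41 to 2.67 bases, and the median insertion was 3 bases in each of the 24 pools. In ESC with DMSO, overlaps were rarest in rejoining geometry, which averaged 58.3%, and commonest in primer-side prey of opposite orientation, which averaged 70.6%. In NPC with APH these means were 66.1% and 73.4%, and inversions had 74.2%.

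**Figure D5:**
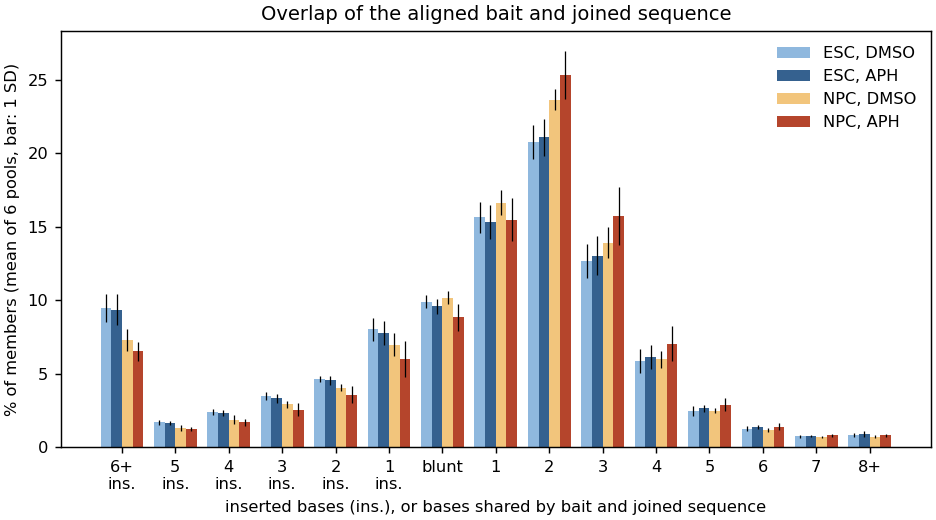
Members by bases shared between aligned bait and prey, or inserted between them, in percent (vertical axis), as the mean of 6 pools with bars of 1 SD, for the 4 conditions. Overlaps of 2 bases are the tallest group in every condition, and NPC bars stand above ESC bars there and below them for insertions.

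The members differed from the junctions outside the window in how the bait end was joined. For its trimming no difference passed the test over all pools, and the cell types went different ways. Overlap was found in 64.1% of members and 72.4% of the other junctions, as means of 24 pools. The difference was -8.23 points ± 3.0, lower in 6 of 6 line and bait pairs and in all but 1 of the 24 pools (exact sign-flip p = 0.031, adjusted over 3 comparisons 0.047). That pool was ESC line 1 bait 12 with DMSO, at 1.45 points. Inserted bases were found in 26.2% of members and 20.9% of the other junctions, a difference of 5.28 points ± 2.38 in 6 of 6 pairs (exact sign-flip p = 0.031, adjusted 0.047). This is not independent of the difference in overlap. A nearly complete bait end was found in 50.4% of both, with a difference of -0.003 points ± 2.37 over the 6 pairs (exact sign-flip p = 1). This mean joins unlike values. Members were lower than the other junctions in 9 of 12 ESC pools, with a range of -8.96 to 5.46 points, and higher in 10 of 12 NPC pools, with a range of -2.79 to 5.09. In all 6 NPC pools with APH they were higher, by 2.81 to 5.09 points. The difference between cell types was seen afterwards and not tested.

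No single site dominated. Members fell on 6100 to 18830 distinct positions and strands in a pool, and the most frequent of these held 0.20% to 0.93% of members. The 3 most frequent positions of each bait lay 1 to 11 bases beyond the break in bait orientation. The most frequent reads at the first of them are shown with 25 bases of bait and 25 of prey. Shared bases are in capitals and counted in both. The reads show how a joint with shared bases looks, and are not typical members.
Bait 7 to chr7:80451944, minus strand, 10 bases beyond: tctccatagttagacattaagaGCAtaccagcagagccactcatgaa
Bait 12 to chr12:13000866, plus strand, 5 bases beyond: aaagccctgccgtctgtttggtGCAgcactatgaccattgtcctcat
Bait 15 to chr15:86848212, plus strand, 3 bases beyond: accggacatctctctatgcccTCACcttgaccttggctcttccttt
In these 3 forms the bait was trimmed by 52, 41 and 23 bases up to a copy of 3 or 4 bases that also stands at the start of the prey. The trimming was deeper than the median loss of any pool, which was at most 19, 19 and 12 bases for these baits. The shared bases can be found again in the first 30 bases beyond the break printed above. Each form was only 3.54% to 6.58% of the reads at its position, which had 44 to 100 distinct bait ends. The position on chromosome 7 held 0.78% and 0.89% of members in ESC with DMSO (lines 1 and 2), 0.62% in both with APH, 0.50% and 0.48% in NPC with DMSO and 0.38% and 0.48% with APH. The position on chromosome 12 held 0.53% and 0.82%, 0.46% and 0.74%, 0.32% and 0.43%, and 0.19% and 0.47% in the same order. The position on chromosome 15 held 0.67% and 0.93%, 0.61% and 0.68%, 0.34% and 0.27%, and 0.20% and 0.26%. Each line thus had a lower NPC value than ESC value at these 3 positions under either treatment.

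Beyond 1 kb the leading positions were also in bait orientation on the far side, 1008 to 1545 bases away, and each held 0.045% to 0.094% of members as a mean of 8 pools. The leading position of each bait is shown in the same way.
Bait 7 to chr7:80450930, minus strand, 1024 bases beyond: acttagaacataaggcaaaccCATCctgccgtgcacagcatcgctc
Bait 12 to chr12:13001869, plus strand, 1008 bases beyond: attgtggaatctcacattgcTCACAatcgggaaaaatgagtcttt
Bait 15 to chr15:86849534, plus strand, 1325 bases beyond: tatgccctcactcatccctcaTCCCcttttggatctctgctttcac
Here the bait was trimmed by 13, 17 and 9 bases, and 4 or 5 bases were shared. All 3 positions were present in each of the 8 pools of their bait. The leading primer-side position in opposite orientation over 1 kb away, chosen after the values were seen, is shown for each bait because this class held a larger share in the NPC pools.
Bait 7 to chr7:80453587, plus strand, 1633 bases on the primer side: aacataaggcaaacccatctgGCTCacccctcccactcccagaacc
Bait 12 to chr12:12999648, minus strand, 1213 bases on the primer side: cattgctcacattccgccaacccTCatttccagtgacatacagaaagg
Bait 15 to chr15:86845684, minus strand, 2525 bases on the primer side: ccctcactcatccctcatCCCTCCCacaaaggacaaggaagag
These reads run along the bait toward the break and, past the joint, go on along the other strand, away from the break. Overlaps of 4, 2 and 7 bases join them, with 7, 3 and 5 bases of bait trimmed. Each position held only 0.024% to 0.038% of members on average, in 8 of 8 pools, so that the class as a whole was spread over many positions.

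A contrast passes the test over 6 pairs only if its direction is the same in every line and bait, so that agreement is no separate result. The levels differed between baits. Bait 15 had the lowest share within 10 kb in NPC with DMSO, 59.2% and 53.9%, against 72.2% to 76.9% for baits 7 and 12. It also had the most nearly complete bait ends in ESC, 72.5% to 73.6%, against 43.5% to 53.9% for bait 12. Between lines, leaving out NPC bait 15, line 2 had fewer nearly complete bait ends than line 1 in 10 of 10 comparisons, by 3.90 points on average. The other 6 measures were higher in line 2 in 3 to 8 of the 10. With 2 lines these differences have no test.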

How the data were processed

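LAM-PCR HTGTS libraries were aligned with Bowtie2 to mm9, per the submitters' processing notes; its version, the junction caller and the filters were not given in the sources used here. Per the file headers, the deposited tables list junction reads with alignment coordinates and no normalised value, and all counts and percentages were computed from them. Of 2037405 rows, 2 were blank and 18609 repeated a read name within a table and were dropped. In 3 pools (NPC line 2 bait 15 APH, ESC line 1 and line 2 bait 7 DMSO) experiment letters did not match the labels, so these served as pools only. Overlap was the last bait base in the read minus the first prey base plus 1; values below 0 were insertions. Each pool gave 7 percentages, each with a 95% exact Clopper-Pearson interval 0.43 to 1.20 points wide that covers counting error only; PCR copies are not independent molecules. Pools of the same line and bait, which share cells and break, were paired, and 5 contrasts per measure were tested by two-sided exact sign-flip tests at 0.05, with Benjamini-Hochberg adjustment over all 35. The test was checked on simulated data. Named positions are, for each bait, the 3 prey positions with the largest mean share of members over its 8 pools and the 3 largest beyond 1 kb. The members and measures were chosen with earlier results of these data known. Alternatives changed the window, the distinct-junction count, the total, overlap and trimming limits, the pairing and the pairs included; those on the window centre, the runs, the shared libraries and baits 7 and 12 were added after the files were seen. Python 3.11.15, pandas 2.3.3, numpy 2.4.6 and scipy 1.17.1 were used.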

Additional observations from a re-analysis of the deposited data

Results flagged for a closer look

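In 2 of the 7 measures the response to APH differed between the cell types by a test of the difference itself. The share of junctions within 10 kb changed by 13.2 points more in NPC than in ESC (-13.2, two-sided exact sign-flip test over 6 pairs, p = 0.031, adjusted 0.048, lower in 6 of 6 pairs). The nearly complete bait end changed by -6.17 points more in NPC (exact sign-flip p = 0.031, adjusted 0.048, lower in 6 of 6 pairs). Both rest in part on the NPC libraries of bait 15 that are shared between lines, and without bait 15 they were -16.1 and -6.85 points. A search for a single pool far from the other 5 of its condition found 0 in 28 groups of pools.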

How the results depend on the processing

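All values here are differences in percentage points, and those over fewer than 6 pairs cannot pass the threshold, so that only their direction and size can be read. Where pairs were only left out, a contrast that passed with 6 pairs also has its direction fixed. NPC line 2 bait 15 was left out, with the 14 further experiments of the 10 sharing pairs that do not join the NPC lines of bait 15. The other experiments of NPC line 1 bait 15 stayed in. They share libraries with line 2, some under the other treatment label. In NPC line 2 bait 12 with APH only experiment A remained. The share within 10 kb then differed by -3.19 with APH in ESC, where 6 pairs remained (exact sign-flip p = 0.0625), and by -19.3 in NPC. It differed by -12.0 and -28.2 between NPC and ESC with DMSO and APH, and by -16.2 between the APH effects. Members within 1 kb differed by -12.4 with APH in NPC and by -9.10 and -14.3 between cell types. Members beyond the break differed by -17.9, -10.4 and -26.8 in the same order, and members in bait orientation by -16.2, -12.1 and -27.1. Between cell types, overlap differed by 5.12 and 9.29 and insertions by -5.33 and -8.30. The nearly complete bait end differed by -2.24 with APH in ESC (exact sign-flip p = 0.031), -8.64 in NPC, -16.5 and -22.9 between cell types, and -6.36 between the APH effects. Over baits 7 and 12 alone, the differences beside the results above apply, with -3.02 for the share and -5.48 for members within 1 kb with APH in ESC. For the share these are -19.1, -9.45, -25.6 and -16.1; for members within 1 kb -11.8, -8.39 and -14.7; beyond the break -18.6, -11.5 and -29.6; in bait orientation -16.8, -13.1 and -29.5. For overlap they are 5.04 and 9.90, for insertions -5.30 and -8.79, and for the bait end -8.81, -15.0, -21.8 and -6.85.

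Leaving out each pair in turn, the share ranged from -2.59 to -1.27 with APH in ESC, -17.5 to -13.4 in NPC, -15.5 to -11.6 and -28.4 to -25.5 between cell types, and -15.0 to -11.1 for the difference in effect. Members within 1 kb ranged from -8.03 to -6.46 in ESC, -12.3 to -9.21 in NPC, and -11.2 to -8.55 and -14.4 to -13.1 between cell types. Beyond the break the ranges were -17.4 to -13.5, -11.4 to -8.94 and -26.3 to -22.2, and in bait orientation -15.8 to -12.2, -13.2 to -10.7 and -26.6 to -22.8. Between cell types, overlap ranged from 4.39 to 5.76 and 7.03 to 9.24, and insertions from -5.94 to -4.67 and -8.29 to -6.40. The bait end ranged from -8.67 to -7.07 in NPC, -18.9 to -16.0 and -25.5 to -22.0 between cell types, and -6.95 to -5.51 for the difference in effect. Members against other junctions ranged from -9.36 to -7.68 for overlap, 4.80 to 6.18 for insertions and -0.76 to 0.63 for the bait end, the only result whose sign changed under any alternative run.

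Pairing by line and bait comes from the shared cell line and break. After subtraction of its condition's mean, an APH pool and its DMSO partner correlated at 0.414 to 0.724 over 40 features in ESC, and at -0.019 to 0.639 in NPC. The value of -0.019 was that of line 2 bait 15, where treatment labels conflict. The other NPC pairs lay at 0.407 to 0.639. Without this pairing the exact permutation test gave p = 0.242 for the ESC share (-2.21), p = 0.0996 for the NPC bait end (-7.57), p = 0.0043 for the difference in APH effect on side (-13.6) and on orientation (-12.4), and p = 0.043 for overlap with APH in NPC (4.20). With experiment letters as a replicate block, the ESC share was -2.35 (exact sign-flip p = 0.0625) and the ESC bait end -1.41 (p = 0.031); no other call changed. Without junctions within 100 bases of the break, the share was -0.45 with APH in ESC and -7.23 between cell types with DMSO (exact sign-flip p = 0.812 and 0.0625), the difference in effect on side -15.4 and the ESC bait end -2.16 (both 0.031). Each distinct junction counted once gave -2.12 for the ESC share (exact sign-flip p = 0.0938), and 6.63 for overlap and -4.93 for insertions with APH in NPC (both 0.031). A window of 5 kb gave -12.6 for the effect on side, and a bait end within 3 bases gave -1.28 in ESC (exact sign-flip p = 0.031 each). The bait chromosome as total gave -3.71 for the share under DMSO, and overlaps of 3 bases or more gave 1.16 and 3.82. The cause of these changes was not tested. Centring the window on the bait end changed no call. Keeping only runs that read both treatments changed none of 21 contrasts with APH. The contrasts between NPC and ESC under DMSO or APH were not run in this way. Pools hold 25721 members or more, so that counting intervals are narrow beside the spread between pools.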
